A study of Rattus norvegicus with 18 samples.

Results

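The comparison set the higher against the lower of 2 doses of cigarette smoke in whole rat lung collected 6 hours after the last exposure. Its members were the 6 samples whose titles carry the mark 6h, out of 18 in the series, and they form 3 of the 9 dose pairs. High-dose rats breathed smoke of 600 µg total particulate matter (TPM) per litre, low-dose rats 300 µg TPM per litre, and control rats conditioned fresh air, all by nose only, for 2, 7 or 13 weeks. Exposure ran for 1 h, 2 times a day with 30 min of fresh air between, on 5 days a week. Each condition was 1 sample made from equal amounts of RNA of 4 rats, so no condition had a replicate. Smoke-exposed RNA carried the dye Cy5 and control RNA the dye Cy3 on every array, and each deposited value is a log2 ratio of smoke over fresh air. No label gives the strain, sex or age of the rats.

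The high-dose and low-dose samples of a given number of weeks were read against the same fresh-air pool. The difference of their log2 ratios, high minus low, therefore removes that pool and any constant effect of the dyes. The 3 differences of a gene, at 2, 7 and 13 weeks, were tested against 0 with limma, and n is 3 pairs throughout unless stated. Weeks of exposure stand in for replicates, so a gene's own spread holds the error between pools and any real change over weeks. For each standard error (SE), limma draws that spread towards a standard deviation shared by all genes. In the test of the 3 differences this shared value was 0.226, with a weight of 8.69 degrees of freedom. An SE is therefore not the plain spread of a gene's 3 differences. Because whole lung was measured, fewer cells of a type and less RNA per cell cannot be told apart in any result below.

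Cigarette smoke carries polycyclic aromatic hydrocarbons that bind the aryl hydrocarbon receptor (AhR), which switches on Cyp1a1 and other detoxifying genes, and oxidants that activate the transcription factor NRF2. Its particles also set off innate defence. Epithelial cells and macrophages release chemokines that draw neutrophils from blood, and lung and liver make acute phase proteins and complement. Secretory cells that make more protein load the endoplasmic reticulum, which answers by making more folding chaperones, the unfolded protein response.

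A sample had a value in 90.0 to 94.1% of the table rows at the high dose and in 78.8 to 88.1% at the low dose, with the lowest share in the low-dose sample of 2 weeks. That sample also stood apart in its log2 ratios. Over the 3842 genes its Pearson correlation was 0.411 with its own high-dose partner and 0.144 to 0.298 with the other 4 samples, against 0.264 to 0.588 among all other pairs of samples. Results are therefore given per week, and the closing section gives them without each pair. Each labelled sample was split over 2 arrays, and the table has 2 blocks of rows, though no label says that a block is an array. The 30 genes with probes in both blocks had log2 dose differences that varied between blocks with a standard deviation (SD) of 0.33, and the correlation between blocks over the 3 pairs was 0.325.

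Lcn2, S100a9 and C4bpa, all genes of innate defence, led by the smallest of their 3 dose differences, and no gene passed the test. Of 3842 genes tested, 0 (0%) had a limma adjusted p under 0.05, and the smallest adjusted p was 0.0666, that of Lcn2. At an unadjusted p under 0.05 there were 249 genes, 154 higher at the high dose (4.01%) and 95 lower (2.47%). An exact sign-flip permutation test of 3 pairs cannot give a two-sided p under 0.25, and 6 of the other settings, given in the closing section, called 1 or 2 genes. The sign was the same in all 3 pairs for 976 genes, of which 513 were higher (13.4% of those tested) and 463 lower (12.1%). A difference of at least 1.5-fold in each of the 3 pairs was found for 3 genes on the higher side (0.0781%), namely Lcn2, S100a9 and C4bpa, and for 0 (0%) on the lower side. The mean difference was at least 1.5-fold for 16 genes on the higher side and for 8 on the lower.

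The limma intervals were narrow for most genes, and their width was set in large part by the spread shared over genes. The median half-width of the 95% interval was 0.28 on the log2 scale. For 3522 of the genes (91.7%) the whole interval lay within a 1.5-fold difference either way, and for 3824 (99.5%) within a 2-fold one. Doubling the smoke concentration thus came with limma intervals that leave out a 2-fold difference for all but 18 of the genes. Among those 18 were Lcn2, C3 and S100a9, whose upper bounds were 1.36, 1.07 and 2.33. Because these intervals lean on the shared spread, they do not measure the precision of each gene's own pairs.

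Acute phase and complement genes were the group that leaned most to the high dose. This list, like the others below, was chosen with earlier results of these data known, so its counts describe and do not test. Of 30 listed genes 19 were tested, and 13 were higher in 3 of 3 pairs (13.4% of all genes were), with 0 lower in 3 of 3 pairs. Their median dose difference was 0.38, against 0.01 over all genes, and 11 had an unadjusted p under 0.05 on the higher side (4.01% of all genes did). The weekly medians were 0.19, 0.45 and 0.29 at 2, 7 and 13 weeks. At 2 and 20 hours the list medians were 0.23 and 0.22, so the lean was not particular to 6 hours.

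Lcn2 encodes lipocalin 2, which withholds iron from bacteria by binding their siderophores. Its log2 ratios over fresh air were 2.17, 3.17 and 2.71 at the high dose and 1.04, 1.85 and 2.02 at the low dose at 2, 7 and 13 weeks. All 3 high-dose values lay above all 3 low-dose values. How many of all genes had no overlap between the doses was not counted, for this gene or those below. The mean dose difference was 1.05 ± 0.14 (SE, n = 3), which is 2.07-fold, with a 95% interval from 0.73 to 1.36 and a limma adjusted p of 0.0666.

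C4bpa is the alpha chain of the C4b-binding protein, a brake on the classical complement pathway. It stood at 1.09, 1.58 and 1.46 at the high dose and 0.49, 0.50 and 0.76 at the low dose, again with no overlap between the doses. The difference averaged 0.79 ± 0.13 (adjusted p = 0.141), or 1.73-fold. For C3, the central complement protein, the log2 ratios were 1.58, 2.24 and 1.29 at the high dose and 1.16, 0.99 and 0.86 at the low dose. The doses did not overlap, and the mean difference was 0.70 ± 0.17 (adjusted p = 0.341). Hp, or haptoglobin, which captures free haemoglobin, had 0.77, 1.01 and 0.95 at the high dose against 0.36, 0.56 and 0.19 at the low dose, with a difference of 0.54 ± 0.13 (adjusted p = 0.335).

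The 9 other members with 1 sign in all 3 pairs included the fetuin Fetub (mean difference 0.68), the kininogen Kng2 (0.62), Pigr, which carries immunoglobulin A across epithelium (0.56), the complement protease C1s (0.38), the lipopolysaccharide co-receptor Cd14 (0.38) and ceruloplasmin, Cp (0.35). The rest were the lipopolysaccharide-binding protein Lbp (0.17) and the C1q chains C1qb (0.13) and C1qa (0.11). Kng2 differed from week to week, with dose differences of 1.11, 0.67 and 0.07. The complement component C4a had the lowest mean of the list, -0.22. Serpina1, an elastase inhibitor, had 0.01, and its probes in the 2 blocks of rows disagreed, with dose differences of 1.07 and -0.12 at 7 weeks.

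**Figure D1:**
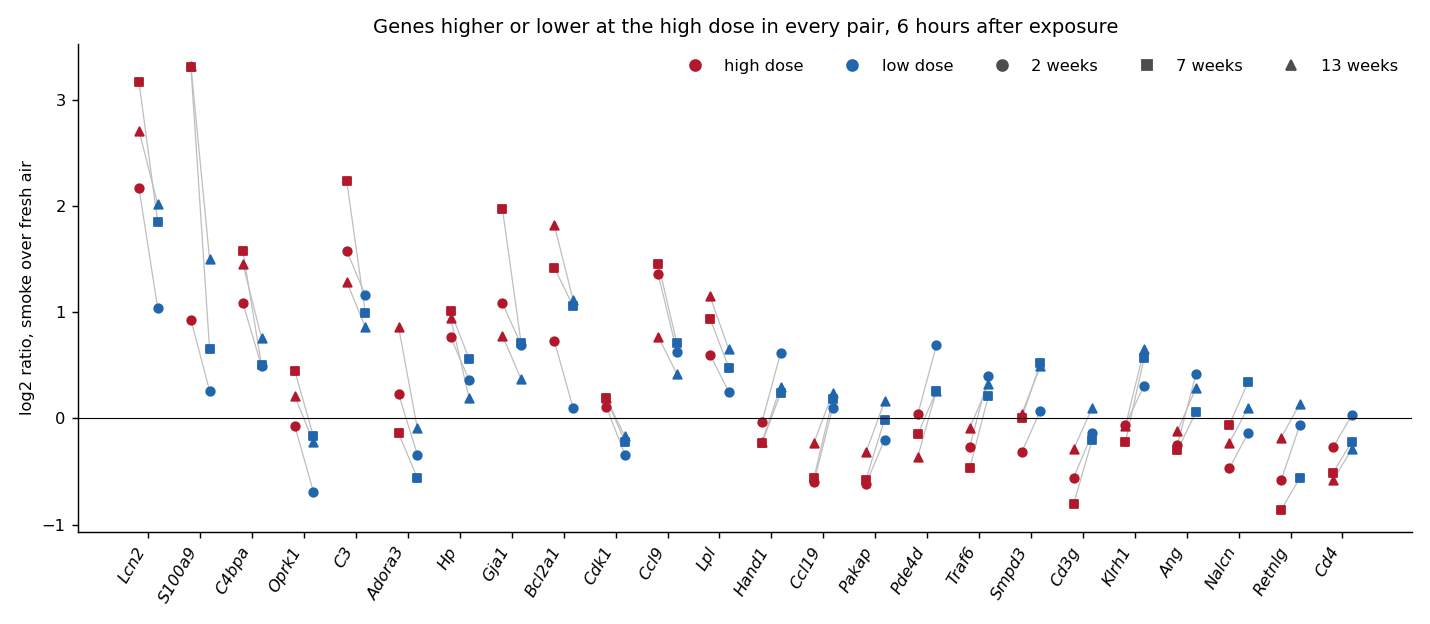
Log2 ratio of smoke over fresh air (vertical axis) 6 hours after exposure for the 12 genes higher and the 12 lower at the high dose in all 3 pairs that lead by their smallest difference. Red marks are high-dose samples and blue marks low-dose samples, the shape gives the weeks, and grey lines join the 2 samples of a pair. Lcn2 had 2.17 to 3.17 at the high dose and 1.04 to 2.02 at the low dose, while most genes on the right lay within 1 log2 unit of fresh air at both doses.

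Neutrophil genes differed among themselves. Only 7 of 22 listed neutrophil and mast cell markers were tested, with a median dose difference of 0.01, and 1 was higher and 3 lower in 3 of 3 pairs (13.4% and 12.1% of all genes were). S100a9, a calcium-binding protein stored in neutrophils in great amount, had 0.93, 3.31 and 3.32 at the high dose and 0.26, 0.65 and 1.5 at the low dose. The high-dose sample of 2 weeks lay below the low-dose sample of 13 weeks, so the doses overlapped across weeks though not within a pair. Its mean difference of 1.72 ± 0.28 (3.29-fold, adjusted p = 0.141) was the largest of all genes tested.

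S100a8, which pairs with S100a9 to form calprotectin, had dose differences of -0.04, 1.74 and 1.43 at 2, 7 and 13 weeks and so did not have 1 sign. The neutrophil chemokine receptor Cxcr2 averaged 0.12 and the granule enzyme Mpo 0.01. Retnlg, a resistin-like protein of rodent granulocytes, stood at -0.58, -0.86 and -0.18 at the high dose and -0.06, -0.56 and 0.14 at the low dose, a difference of -0.38 ± 0.12 (adjusted p = 0.523). The mast cell protease Mcpt1 had a difference of -0.32 ± 0.12 (adjusted p = 0.604). The part of neutrophil number in the value of S100a9 was not tested.

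Among 13 chemokines and cytokines tested of 29 listed, 4 were higher and 1 was lower in 3 of 3 pairs (13.4% and 12.1% of all genes were), and the median was 0.14. Cxcl1, which attracts neutrophils, had 1.72, 1.75 and 2.46 at the high dose and 0.96, 1.53 and 1.14 at the low dose. The doses did not overlap, and the difference was 0.77 ± 0.18 (1.70-fold, adjusted p = 0.335). Il1r2, a decoy receptor that soaks up interleukin 1, had 0.65, 1.21 and 1.23 at the high dose against 0.40, 0.40 and 0.48 at the low dose, a difference of 0.60 ± 0.14 (adjusted p = 0.335). For the monocyte attractant Ccl2 the 3 differences were 0.72, 0.00 and 0.71.

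Ccl9, a chemokine of the macrophage inflammatory protein family in rodents, belonged to none of the lists. It stood at 1.36, 1.46 and 0.77 at the high dose and 0.63, 0.71 and 0.42 at the low dose, with a difference of 0.61 ± 0.13 (adjusted p = 0.261). Ccl19, the ligand of CCR7 that steers T cells and dendritic cells, had -0.60, -0.56 and -0.23 at the high dose and 0.10, 0.18 and 0.24 at the low dose. High-dose values were thus below fresh air and low-dose values above it, and the difference was -0.64 ± 0.12 (adjusted p = 0.261). Ccl5, a T cell attractant and the 1 member of the list lower in 3 of 3 pairs, differed by -0.45 ± 0.13 (adjusted p = 0.466).

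The 250 bases before the annotated start of Cxcl1 are shown because its promoter was the one of 8 chemokine and cytokine windows that held the kappa-B string searched, GGGAA followed directly by TTTCC on either strand. Of 33469 rat windows of that length 0.0687% held the string, and 0 of 13 windows of the acute phase list did. The window, from RefSeq for build GRCr8, lies at chr14:17479322-17479571 on the minus strand and is written 5′ to 3′ along the gene, with the match in capitals 74 bases before the start.
Cxcl1: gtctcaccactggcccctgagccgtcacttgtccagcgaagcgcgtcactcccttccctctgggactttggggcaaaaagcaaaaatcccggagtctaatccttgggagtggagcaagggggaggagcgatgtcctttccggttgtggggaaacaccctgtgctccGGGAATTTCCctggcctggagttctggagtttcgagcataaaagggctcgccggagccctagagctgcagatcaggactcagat
A match is a description of letters and says nothing of binding in these lungs.

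Lymphocyte markers were the group that leaned most to the low dose. Of 31 listed genes 15 were tested, 8 of them lower and 0 higher in 3 of 3 pairs (12.1% of all genes were lower in 3 of 3 pairs). The median dose difference was -0.29, and 8 genes had an unadjusted p under 0.05 on the lower side (2.47% of all genes did). Weekly medians were -0.30, -0.22 and -0.22. The list medians at 2 and 20 hours were -0.18 and -0.29, so the lean was seen at the other times as well.

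Cd79b, a signalling chain of the B cell receptor, had -1.06, -0.84 and -0.89 at the high dose against 0.39, -0.56 and 0.03 at the low dose. All high-dose values lay below all low-dose values, and the difference was -0.88 ± 0.19 (adjusted p = 0.261). The B cell surface protein Ms4a1 (CD20) had differences of -1.30, -0.50 and 0.03, so its 13-week pair did not share the sign. Cd3g, a chain of the T cell receptor complex, had -0.56, -0.81 and -0.29 at the high dose and -0.14, -0.20 and 0.10 at the low dose, a difference of -0.47 ± 0.12 (adjusted p = 0.341). Its partner chain Cd3d differed by -0.47 ± 0.15 (adjusted p = 0.523).

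For Cd4, the co-receptor of helper T cells, the 3 differences were close to each other, -0.30, -0.29 and -0.29, with a mean of -0.29 ± 0.12 (adjusted p = 0.685). The T cell kinase Lck (-0.33), the cytotoxic granule protease Gzma (-0.40) and the natural killer receptor Klrd1 (-0.32) also had 1 sign in all 3 pairs. Klrh1, a killer cell lectin-like receptor outside the lists, had -0.06, -0.22 and -0.07 at the high dose and 0.31, 0.57 and 0.65 at the low dose, a difference of -0.63 ± 0.13 (adjusted p = 0.261). Ptprc, the CD45 protein of all leukocytes, had a mean of -0.09 and mixed signs.

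**Figure D2:**
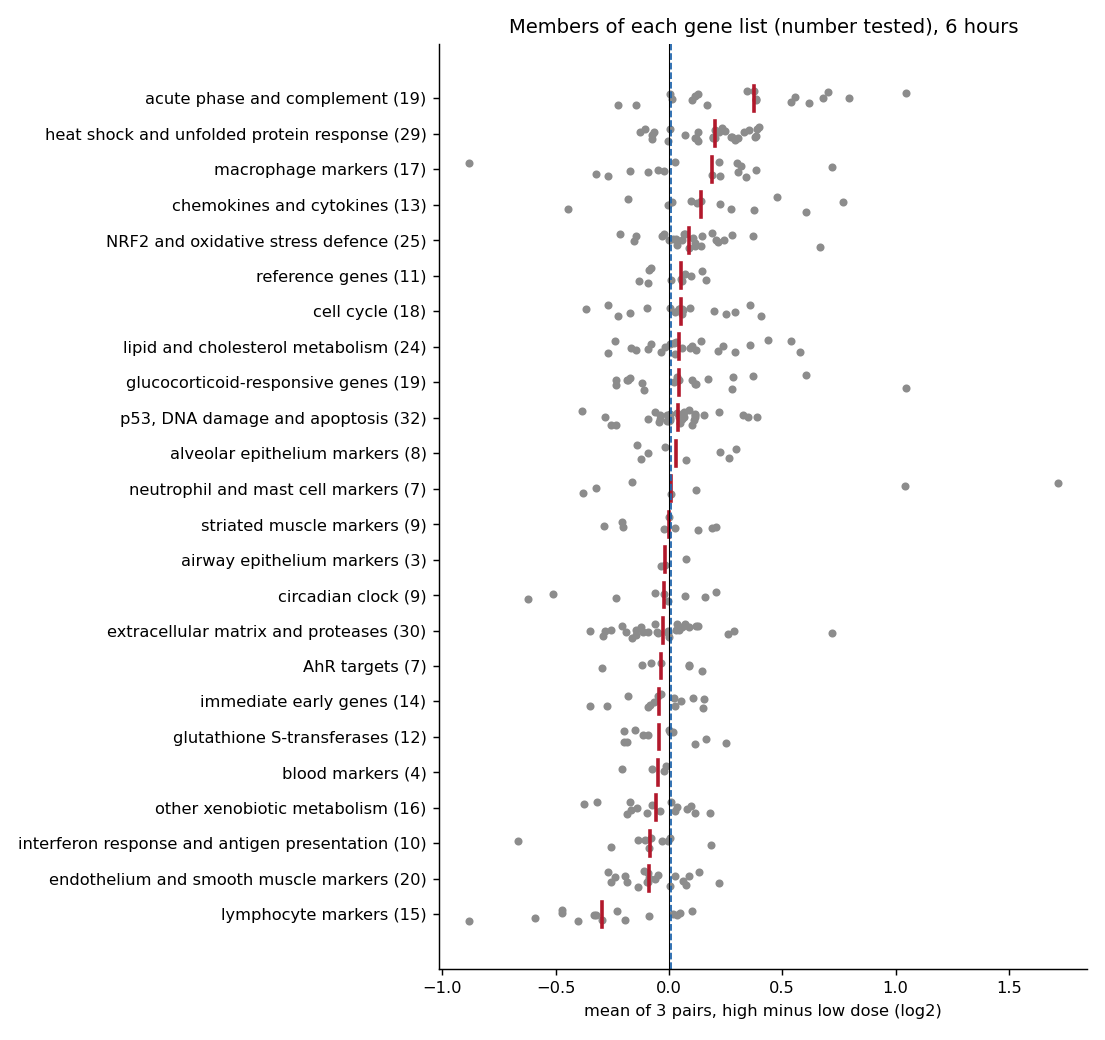
Mean dose difference, high minus low (log2, horizontal axis), of every tested member of the 24 gene lists, 1 grey dot a gene. Red bars mark the list median, the dashed blue line the median of all genes (0.01), and the number tested is in parentheses. The acute phase list has a median of 0.38 and the lymphocyte list one of -0.29, and the other medians lie between.

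Folding chaperones gave a small lean to the high dose. Of 34 listed genes of the heat shock and unfolded protein response 29 were tested, 11 of them higher and 1 lower in 3 of 3 pairs (13.4% and 12.1% of all genes were). The median was 0.20, with weekly medians of 0.18, 0.15 and 0.17, and 7 genes had an unadjusted p under 0.05 on the higher side (4.01% of all genes did). At 2 and 20 hours the list medians were 0.00 and 0.06, a difference between times that no test of the list was made for.

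Hsp90b1 (GRP94), a chaperone of the endoplasmic reticulum, had 0.57, 0.70 and 0.54 at the high dose and 0.24, 0.19 and 0.23 at the low dose. The doses were well apart beside a narrow spread at each, and the difference was 0.38 ± 0.12 (1.30-fold, adjusted p = 0.523). Hspa5 (BiP) is the main chaperone of the same compartment. It had 0.26, 0.74 and 0.88 at the high dose against 0.03, 0.45 and 0.23 at the low dose, with a difference of 0.39 ± 0.13 (limma adjusted p = 0.561). The disulphide isomerase Pdia3 had 0.23, 0.76 and 0.42 at the high dose and 0.15, 0.07 and 0.00 at the low dose, a difference of 0.40 ± 0.14 (adjusted p = 0.579).

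Cytosolic members differed among themselves. Hsph1 had 0.35, Hspa8 0.30 and the Hsp90 co-chaperone Stip1 0.29, each with 1 sign in all 3 pairs, while Hsp90aa1 had differences of -0.16, -0.04 and 0.94, and Hspa2 and Cryab had means of -0.13 and -0.11. Dnajb9, a co-chaperone of BiP, had 0.33. The stress factor Ddit3 (CHOP), which promotes cell death under lasting stress, had -0.07, and the small heat shock protein Hspb1 had -0.07 with 1 sign in 3 of 3 pairs.

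Promoter windows of this list are shown because some of its members shared a string. The string is a textbook one for this response, and other strings were looked at, so the shares describe and do not test. The endoplasmic reticulum stress element, searched as CCAAT, then any 9 bases, then CCACG, on either strand, was in 5 of the 25 members with a window, those of Calr, Canx, Hsp90b1, Hspa5 and Xbp1, and in 0.0657% of all 33469 windows. Hspa5 (chr3:38452766-38453015, plus strand) held it once, 24 bases before the start. Hsp90b1 (chr7:23012294-23012543, minus strand) held it once on each strand, 157 and 53 bases before the start. Both windows are RefSeq sequence of build GRCr8, written 5′ to 3′ along the gene with the matches in capitals.
Hspa5: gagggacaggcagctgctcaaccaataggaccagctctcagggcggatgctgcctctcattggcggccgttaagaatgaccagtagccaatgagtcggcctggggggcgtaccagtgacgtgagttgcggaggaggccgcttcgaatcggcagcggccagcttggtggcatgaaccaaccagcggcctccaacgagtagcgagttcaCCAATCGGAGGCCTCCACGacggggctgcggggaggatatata
Hsp90b1: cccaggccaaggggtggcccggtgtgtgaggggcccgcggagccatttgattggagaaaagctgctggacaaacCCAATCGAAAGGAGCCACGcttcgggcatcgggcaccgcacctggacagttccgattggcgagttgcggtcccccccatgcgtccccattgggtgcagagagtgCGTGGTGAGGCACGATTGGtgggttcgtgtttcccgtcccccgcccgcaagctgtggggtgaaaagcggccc
The match alone is given for Xbp1, a transcription factor of the response, for the lectin chaperone Canx, and for its relative Calr, where it lies on the opposite strand and so reads reversed.
Xbp1: CCAATCGCAGACGGCCACG
Canx: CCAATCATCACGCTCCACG
Calr: CGTGGTCGACCCTGATTGG
The mean dose differences of these last 3 were 0.20, 0.20 and 0.13, near or below the list median, and those of Hspa5 and Hsp90b1 were among the 3 highest of the list.

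Of 17 macrophage genes tested of 33 listed, 5 were higher and 3 lower in 3 of 3 pairs (13.4% and 12.1% of all genes were). The median of their mean differences was 0.19 and 0.06 with each array scaled to the same spread, and the weekly medians were 0.08, 0.16 and -0.08 at 2, 7 and 13 weeks. The lysosomal membrane protein Cd68 had 0.83, 1.07 and 1.58 at the high dose and 0.51, 0.91 and 0.91 at the low dose, a difference of 0.38 ± 0.13 (adjusted p = 0.579). The cathepsins Ctsb and Ctss differed by 0.34 and 0.32.

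Spp1 (osteopontin), a secreted phosphoprotein of activated macrophages, lay the other way, with 0.42, -0.12 and -0.30 at the high dose and 2.11, 0.74 and -0.20 at the low dose. Its difference averaged -0.88 ± 0.23 (adjusted p = 0.341) and was near 0 at 13 weeks, at -0.10. The elastase Mmp12, known for its part in smoke-induced emphysema in mice, had 0.08, 0.71 and 1.54 at the high dose and 0.15, 0.14 and -0.12 at the low dose. Its 3 differences were -0.07, 0.57 and 1.66, with a mean of 0.72 ± 0.25 (adjusted p = 0.579). Adgre1 (F4/80), a defining macrophage surface protein, had a mean of -0.32, and Csf1r, the receptor for macrophage growth factor, had -0.09.

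Of 24 genes of lipid and cholesterol metabolism tested of 40 listed, 5 were higher and 3 lower in 3 of 3 pairs (13.4% and 12.1% of all genes were), with a median of 0.04. Sqle, an enzyme of cholesterol synthesis, had 0.20, 0.41 and 0.94 at the high dose and 0.00, -0.49 and 0.30 at the low dose, a difference of 0.58 ± 0.15 (adjusted p = 0.341). Fabp5, a fatty acid carrier, had 0.86, 0.99 and 1.48 at the high dose and 0.15, 0.71 and 0.85 at the low dose, with a difference of 0.54 ± 0.13 (adjusted p = 0.341). Lpl, the lipase that frees fatty acids from lipoproteins, differed by 0.44 ± 0.12 (adjusted p = 0.378). Fdft1, which makes squalene, had 0.36, while Cpt1a, the gate of fatty acid oxidation in mitochondria, had -0.24. The sterol regulatory string TCACNCCAC was found in 0 of 14 windows of the list and in 0.974% of all windows.

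The AhR targets Cyp1a1, Aldh3a1 and Nqo1 were well above fresh air at both doses, and the list as a whole had no lean to the higher one. Other members lay nearer to fresh air. Cyp1b1, lower in 3 of 3 pairs, had mean log2 ratios of -0.04 at the high dose and 0.08 at the low dose. In the same order Ugt1a6 had 0.41 and 0.45, the receptor Ahr 0.23 and 0.14, and Nfe2l2, the gene of NRF2, 0.04 and -0.05. Among 7 tested of 12 listed, 1 was higher and 1 lower in 3 of 3 pairs (13.4% and 12.1% of all genes were), with a median of -0.04. Cyp1a1, the cytochrome P450 that oxidises polycyclic hydrocarbons, had 4.00, 4.07 and 3.32 at the high dose and 4.53, 4.03 and 3.72 at the low dose. The doses overlapped, and the mean difference was -0.30 ± 0.14 (adjusted p = 0.755), with a 95% interval from -0.60 to 0.01. Aldh3a1, an aldehyde dehydrogenase, had 1.94, 1.74 and 2.06 at the high dose and 2.25, 1.70 and 2.03 at the low dose, a difference of -0.08 with an interval from -0.36 to 0.20.

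Nqo1, a quinone reductase under both AhR and NRF2, had 1.70, 1.73 and 1.66 at the high dose and 1.55, 1.62 and 1.48 at the low dose. Its 6 values lay close together, and the difference was 0.15 with an interval from -0.11 to 0.41. Of 25 NRF2 and oxidative stress genes tested, 2 were higher and 1 lower in 3 of 3 pairs, below the shares of all genes, and the median was 0.09. Sod2, the mitochondrial superoxide dismutase, stood at 1.10, 2.21 and 1.11 at the high dose and 0.18, 1.14 and 1.10 at the low dose, so that its difference of 0.67 ± 0.19 (adjusted p = 0.391) came from 2 and 7 weeks. Hmox1, heme oxygenase, had 0.18, 0.86 and 0.21 at the high dose and -0.03, 0.48 and 0.58 at the low dose, a mean difference of 0.07 with an interval from -0.27 to 0.41. The 12 glutathione S-transferases tested had a median of -0.05, with 2 higher and 4 lower in 3 of 3 pairs (13.4% and 12.1% of all genes were). Gstm2 and Gstm1, on the lower side, had -0.20 each, and Gstt2, on the higher, had 0.25. Gstp1 had 0.16 with mixed signs.

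**Figure D3:**
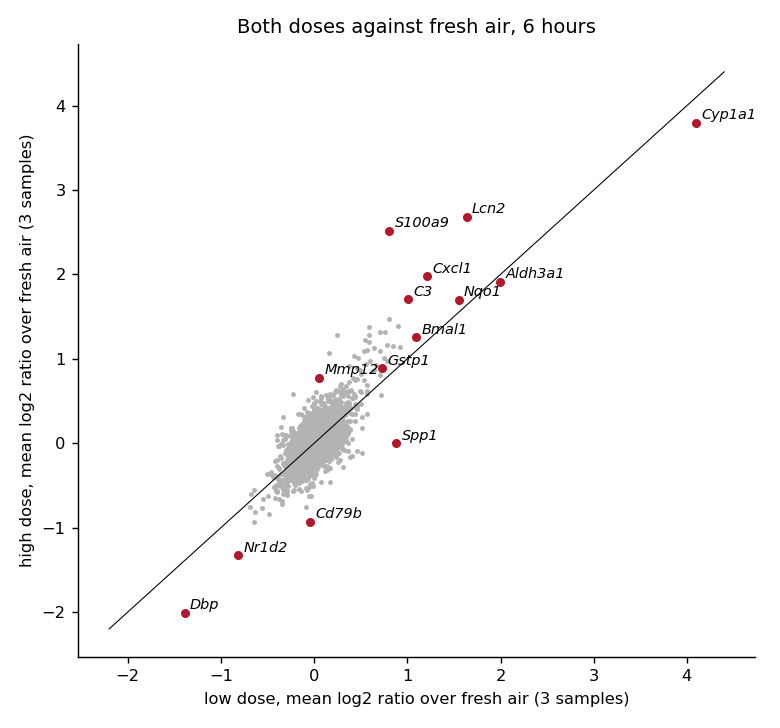
Mean log2 ratio over fresh air of each gene at the high dose (vertical axis) and at the low dose (horizontal axis), over 3 samples each, with named genes in red and the line of equal values in black. Cyp1a1, Aldh3a1 and Nqo1 lie near the line at the top right, Lcn2, S100a9 and C3 above it, and Spp1, Cd79b and Dbp below it.

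Dbp and Nr1d2, whose levels follow the circadian clock, were below fresh air in all 6 samples, and further below it at the high dose in each pair. Of 9 clock genes tested of 21 listed, 1 was higher and 3 lower in 3 of 3 pairs (13.4% and 12.1% of all genes were), and the list median was -0.02. Dbp, a transcription factor whose level swings widely over the day, had -1.22, -2.25 and -2.56 at the high dose and -1.0, -1.74 and -1.43 at the low dose. The doses overlapped across weeks but not within pairs, and the difference was -0.62 ± 0.17 (adjusted p = 0.341). Nr1d2 (REV-ERB beta), a repressor of the clock, had -0.60, -1.69 and -1.69 at the high dose against -0.15, -1.40 and -0.89 at the low dose, a difference of -0.51 ± 0.13 (adjusted p = 0.341).

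Its relative Nr1d1 differed by -0.23 ± 0.13 (adjusted p = 0.832). Bmal1, which drives the loop, had 0.75, 1.35 and 1.67 at the high dose and 0.60, 1.49 and 1.2 at the low dose, a difference of 0.16 with an interval from -0.15 to 0.47. The E-box CACGTG, which reads the same on both strands, was in 2 of 8 windows of the list, those of Bhlhe40 and Tef, and in 5.59% of all windows. No label gives the clock times of collection.

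Several further genes led by the smallest of their 3 differences and belonged to no list. Gja1 (connexin 43, a gap junction protein) had a difference of 0.69 ± 0.17, Bcl2a1, a survival protein of the Bcl2 family, 0.56 ± 0.13, and the adenosine receptor Adora3 0.65 ± 0.14. The kappa opioid receptor Oprk1 had -0.07, 0.45 and 0.21 at the high dose and -0.69, -0.17 and -0.22 at the low dose, a difference of 0.56 ± 0.12 (adjusted p = 0.261). On the lower side were Traf6, an adaptor of Toll-like receptor signalling, at -0.59 ± 0.12, the cyclic AMP phosphodiesterase Pde4d at -0.56 ± 0.12, the developmental transcription factor Hand1 at -0.55 ± 0.12 and the sphingomyelinase Smpd3 at -0.45 ± 0.12. Pakap (-0.49), the ribonuclease Ang (-0.48) and the sodium leak channel Nalcn (-0.35) completed the 12.

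The 3 pairs shared little of their dose difference when all genes were set side by side. Over 3842 genes the Pearson correlation of the differences was 0.106 between 2 and 7 weeks, 0.0315 between 2 and 13 weeks and 0.107 between 7 and 13 weeks. The samples of different pairs share no pool, and all share the array design. The SD of the differences over genes was 0.277 at 2 weeks, 0.277 at 7 weeks and 0.246 at 13 weeks.

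The widest ranges over weeks were those of S100a9, Dmbt1, Csrp3, Tjp1, Unc5d and Clcn2. Dmbt1, a scavenger protein of mucosal surfaces, had 0.08, 2.14 and 0.82 at the high dose and 1.00, 0.23 and 0.18 at the low dose. The tight junction protein Tjp1 had -0.01, 2.30 and 0.93 at the high dose and -0.01, 0.24 and 0.25 at the low dose. At 20 hours its dose differences were 0.37, 2.18 and -1.20 at 2, 7 and 13 weeks. Csrp3, a LIM protein of heart and skeletal muscle, had -1.29, 2.15 and 0.88 at the high dose and -2.18, 2.42 and -0.92 at the low dose, so its weeks differed far more than its doses. The 9 striated muscle markers tested had mean dose differences from -0.29 to 0.21, and whether muscle tissue had a part in the values of Csrp3 was not tested.

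**Figure D4:**
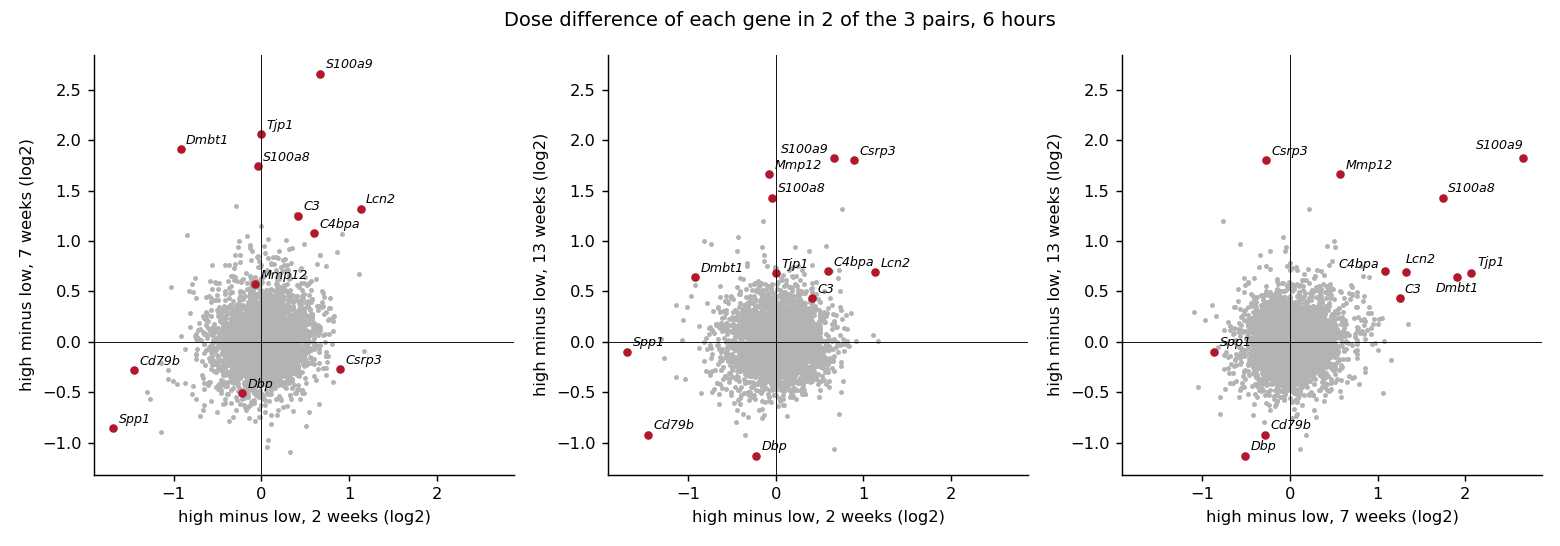
Dose difference of each gene, high minus low (log2), in 1 pair against another, for 2 against 7, 2 against 13 and 7 against 13 weeks, with named genes in red. The grey cloud is nearly round in each panel (correlations of 0.106, 0.0315 and 0.107), Lcn2 and C4bpa lie at the upper right in all 3, and S100a8 and Mmp12 are near 0 at 2 weeks.

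The dose differences at 6 hours were then set against those at 2 and 20 hours, which come from other pools. Of 3738 genes, 0 (0%) differed between 6 hours and the mean of the other times at a limma adjusted p under 0.05, and the smallest adjusted p was 0.999. At an unadjusted p under 0.05 there were 136 genes (3.64%), 75 higher and 61 lower at 6 hours. Over 3560 genes with a value in all 18 samples the mean differences at 6 hours had a Pearson correlation of 0.166 with those at 2 hours and 0.346 with those at 20 hours, on 1 array design with all pools distinct.

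Lcn2 had mean dose differences of 0.94, 1.05 and 0.87 at 2, 6 and 20 hours, and Hp had 0.48, 0.54 and 0.61. Both were on the high-dose side in all 9 pairs. S100a9 had 0.36, 1.72 and 0.79, and its value at 6 hours exceeded the mean of the other times by 1.14 ± 0.34 (adjusted p = 0.999). Dbp had 0.16, -0.62 and 0.19, a contrast of -0.80 ± 0.22. Slpi, a secreted inhibitor of neutrophil elastase, had -1.15, -0.30 and -0.42 at the high dose and -0.01, -0.09 and -0.07 at the low dose at 6 hours, and its contrast against the other times was -0.78 ± 0.19 (adjusted p = 0.999).

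The other genes with the smallest p in that contrast were Trim37, a ubiquitin ligase (0.48 ± 0.13), Oprk1 (0.62 ± 0.18) and the vesicle cargo receptor Tmed2 (0.46 ± 0.14) on the higher side, and Camkv (-0.56 ± 0.15) and Ang (-0.54 ± 0.16) on the lower. Hspa5 had contrasts of 0.38 ± 0.19 and Hsp90b1 of 0.30 ± 0.15, neither past the threshold. Cyp1a1 was at a mean difference of 0.10 at 2 hours and 0.12 at 20 hours, against -0.30 at 6 hours, a contrast of -0.41 ± 0.16 (adjusted p = 0.999).

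**Figure D5:**
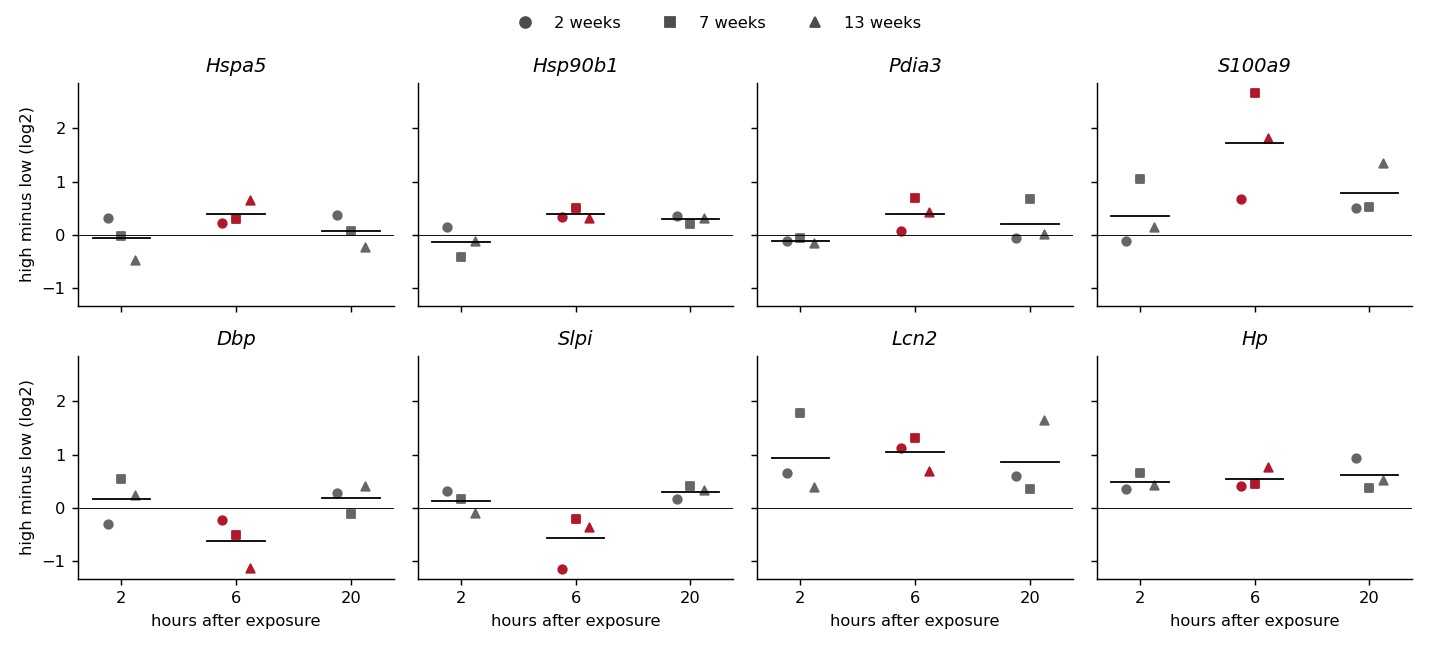
Dose difference, high minus low (log2, vertical axis), of 8 genes at 2, 6 and 20 hours after exposure, with 1 mark a pair, its shape giving the weeks, red at 6 hours, and black lines at the mean of 3 pairs. Lcn2 and Hp are above 0 in every pair, S100a9 has means of 0.36, 1.72 and 0.79, and Dbp and Slpi lie below 0 at 6 hours in all 3 pairs.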

How the data were processed

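The authors deposited 1 table of log2 ratios with 11994 rows for 18 samples of pooled lung RNA, each split over 2 arrays of the PIQOR type per the labels. No label or header names the scanner, background correction or normalization, and signal over background is unknown. The base was checked on the 257 values under -1, of which 100% matched a 2-decimal ratio taken to log2 (tolerance 0.006 log2 units). The direction, smoke over air, is taken from the channel labels. Rows repeating the values of another row were merged to 5922 probes, 4762 with a symbol, and probes with a value in all 6 samples were averaged by gene, which left 3842 genes (82 with more than 1 probe). Of 9658 annotated rows 9614 matched the gene table.

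Differences were tested with limma 3.58.1 in R 4.3.3 (lmFit, eBayes, two-sided), without covariates, and p values were adjusted by Benjamini-Hochberg over all genes tested, with a threshold of 0.05. The fit was also run on simulated normal differences, with spreads drawn from limma's own prior and no change over weeks. That run cannot show how the fit behaves on these data. The contrast of times used 9 differences, with a mean for each time. Pairs follow from the control pool that both doses share per the source names. Python 3.11.15 with pandas 2.3.3, numpy 2.4.6 and matplotlib 3.10.9 did the rest.

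The members and the 24 gene lists were chosen with earlier results of these data known. The rule named up to 12 genes a side with 1 sign in 3 of 3 pairs, by their smallest difference, up to 3 such members a list, 4 and 4 for the contrast of times, the 6 widest ranges over weeks, and fixed genes, of which Sftpc, Scgb1a1 and Per2 were not tested. Further genes, such as S100a8, were picked once their values had been seen. Lists were described by counts and medians, with no set test. Promoter windows are the 250 bases before the start in RefSeq sequence of build GRCr8. The motif strings are textbook ones, and other strings were looked at and are not described. Alternatives changed the spread, the pairing, the probes, the genes admitted, the scaling and the pairs included.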

Additional observations from a re-analysis of the deposited data

How the results depend on the processing

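The count of genes past the threshold, 0, became 2 with the spread shared over the 9 differences of all times (C4bpa and S100a9, limma adjusted p = 0.0457) and 2 over genes with a value in all 18 samples (Lcn2 and S100a9, smallest adjusted p = 0.0213). It became 1 (Lcn2) with every probe on its own (adjusted p = 0.0434), with each array centred on its median (0.0357) and with each of the 2 blocks of rows centred, a setting chosen after seeing the data (0.0339). The plain statistic per gene gave 1, Slc22a17, whose 3 differences were identical. The adjusted p of Lcn2 ran from 0.0339 to 0.972 over settings other than the sign-flip test, whose smallest value for any gene was 0.976, and the one on genes with a value in all 18 samples, given above by its smallest value. The count was 0 with a robust trended prior, with array scaling, with 2 of 3 pairs enough, with a 1.5-fold minimum, by the exact sign-flip test, and without each pair in turn (0 to 0). With no replicate block, that is without the pairing, it was 0 too (smallest adjusted p = 0.798).

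The count against the other times was 0 to 1 without each pair, and the 1 was S100a8 (adjusted p = 0.0378) without the 2-week pair. Settings that changed only the spread or the pairing leave a gene's mean difference as it was, so its direction could not change there. Among named genes 856 values under other settings kept their direction and side of the threshold, 5 passed it and 5 reversed, all near 0. These were Actb (-0.02 on 1 probe), Gapdh (-0.037 on 1 probe and -0.013 with array scaling), Hmox1 (-0.026) and Bmal1 (-0.011), the last 2 with array scaling. A gene with 1 sign in all 3 pairs cannot reverse when a pair is left out, and most named genes were chosen for that trait. Leaving out a pair reversed 5 genes, which then ranged from -0.14 to 1.275 (Dmbt1), -0.45 to 0.53 (Unc5d), -0.68 to 0.275 (Clcn2), -0.14 to 0.035 (Aldh3a1) and -0.08 to 0.295 (Hmox1). Without the 2-week pair S100a9 stood at 2.24, the lymphocyte median at -0.24, that of the chaperones at 0.14 and that of the acute phase list at 0.37. The macrophage median was 0.06 with array scaling. With 3 pairs and no replicate of a condition, the number of arrays limits the precision.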

Other observations

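Several gene groups outside the main account leaned little between the doses at 6 hours, and none of their members passed the limma test. Of 18 cell cycle genes tested, 3 were higher and 2 lower in 3 of 3 pairs (13.4% and 12.1% of all genes were). Cdk1, the kinase that drives cells into mitosis, had 0.11, 0.19 and 0.19 at the high dose and -0.34, -0.22 and -0.17 at the low dose, so every high-dose sample lay above fresh air and every low-dose sample below it. Its difference was 0.41 ± 0.12 (SE, n = 3 pairs, limma adjusted p = 0.452). The mitotic kinase Plk1 had 0.29, while Mcm3 of the replicative helicase had -0.37. Of 30 matrix and protease genes tested, 4 were higher and 5 lower in 3 of 3 pairs, again near the shares of all genes. The fibrillar collagen Col5a2 had -0.35 and the urokinase receptor Plaur 0.29. In the p53 and apoptosis list the death effector Bak1 had 0.39 and the repair protein Brca1 -0.38.

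Interferon and antigen presentation genes had a median of -0.08 over 10 tested. Irf7, the main regulator of type I interferon, had -1.36, -0.71 and -0.20 at the high dose and -0.09, -0.14 and -0.04 at the low dose. The 3 differences were -1.27, -0.57 and -0.16, and the mean was -0.67 ± 0.18 (adjusted p = 0.380). The surfactant proteins Sftpd and Sftpa1, made by type 2 alveolar cells, had 0.30 and 0.23, each with 1 sign in 3 of 3 pairs, while the type 1 cell markers Ager and Hopx had -0.14 and -0.12. Among 20 endothelial and smooth muscle genes the median was -0.09, and the endothelial receptor Tie1 had -0.27. Egr1, an immediate early transcription factor, had -0.35, and the nasal and lung cytochrome Cyp2a3 had -0.37 ± 0.12 (adjusted p = 0.523), with -0.74, -0.42 and -1.0 at the high dose against -0.30, -0.03 and -0.71 at the low dose.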
